A study of Homo sapiens with 8 samples.

Results

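MX1, MX2, RSAD2, CMPK2, SAMHD1, BST2 and ISG20 are antiviral effector genes, and they were followed here through PRMT9 knockdown (KD) in 2 acute myeloid leukemia (AML) lines. The 7 genes were taken by gene symbol from the Molm13 counts table and matched by Ensembl gene ID to the THP1 table. They are 7 of the 57722 genes that both tables hold. The rule itself uses no measured value.

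The study asked how loss of PRMT9, an arginine methyltransferase, changes AML cells, and bulk polyA RNA-seq was done in Molm13 and THP1, which are human monocytic leukemia lines with MLL fusions. Each line carried a doxycycline (Dox)-inducible control shRNA (shCtrl, genotype WT in the labels) or a Dox-inducible shRNA against PRMT9 (shPRMT9, genotype PRMT9 knockdown). All 4 groups received Dox, so shCtrl is a Dox-treated control and no untreated sample was compared. There were 2 libraries per group and 8 in all. The labels number the shPRMT9 libraries 1 and 2 without saying whether these are 2 hairpins or repeats of 1, nor whether same-group libraries are separate cultures, so p-values measure only the spread between these libraries, which may be technical. The THP1 titles also carry the letters OCI, which the labels do not explain.

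The proteins encoded by these genes block viruses at different steps, and most of the genes are classical targets of type I interferon. Interferon binds its receptor, the receptor's kinases JAK1 and TYK2 pass the signal on, and a complex that holds IRF9 binds the interferon-stimulated response element (ISRE) in target promoters. MX1 and MX2 are dynamin-like GTPases, RSAD2 (viperin) is a radical SAM enzyme that makes a chain-terminating CTP analog, CMPK2 is a mitochondrial nucleotide monophosphate kinase, SAMHD1 hydrolyzes deoxynucleotide triphosphates, BST2 (tetherin) holds budding virions on the cell surface, and ISG20 is a 3′ to 5′ exonuclease.

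RefSeq promoter windows (GRCh38.p14, 250 bases before to 50 bases after a start) were present for 6 of the 7 genes, 11 windows in all; MX2 had no entry. The windows below show, for each of the 6 genes, its window with the most ISRE cores, and for RSAD2 both windows, because the upstream one overlaps that of CMPK2. Capitals mark the ISRE core GAAANNGAA on either strand.
MX1, chr21:41420308-41420607 (+ strand): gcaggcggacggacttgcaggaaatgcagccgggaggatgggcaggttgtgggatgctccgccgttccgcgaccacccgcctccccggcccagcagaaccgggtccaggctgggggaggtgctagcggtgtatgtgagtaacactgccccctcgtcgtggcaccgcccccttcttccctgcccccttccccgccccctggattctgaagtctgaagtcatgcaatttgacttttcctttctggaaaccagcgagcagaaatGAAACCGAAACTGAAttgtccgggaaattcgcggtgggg
RSAD2 upstream start, chr2:6865635-6865934 (+ strand): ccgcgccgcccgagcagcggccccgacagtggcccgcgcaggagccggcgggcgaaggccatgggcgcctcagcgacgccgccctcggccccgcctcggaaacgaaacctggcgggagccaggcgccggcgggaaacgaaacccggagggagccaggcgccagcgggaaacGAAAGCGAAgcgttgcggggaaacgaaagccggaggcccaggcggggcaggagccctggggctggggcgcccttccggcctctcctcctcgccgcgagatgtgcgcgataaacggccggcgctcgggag
CMPK2, chr2:6865770-6866069 (- strand): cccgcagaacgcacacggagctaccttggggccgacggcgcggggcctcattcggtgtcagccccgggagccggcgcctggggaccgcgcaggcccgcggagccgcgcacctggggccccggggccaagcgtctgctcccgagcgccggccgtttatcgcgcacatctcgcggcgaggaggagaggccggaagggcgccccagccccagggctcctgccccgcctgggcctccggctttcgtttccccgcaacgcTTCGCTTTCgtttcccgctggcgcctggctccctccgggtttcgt
RSAD2 downstream start, chr2:6877527-6877826 (+ strand): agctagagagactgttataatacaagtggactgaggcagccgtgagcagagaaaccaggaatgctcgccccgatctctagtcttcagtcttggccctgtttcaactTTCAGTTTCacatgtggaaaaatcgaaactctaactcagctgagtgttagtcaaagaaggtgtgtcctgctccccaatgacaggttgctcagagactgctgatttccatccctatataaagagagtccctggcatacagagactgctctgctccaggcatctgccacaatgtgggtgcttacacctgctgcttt
SAMHD1, chr20:36951659-36951958 (- strand): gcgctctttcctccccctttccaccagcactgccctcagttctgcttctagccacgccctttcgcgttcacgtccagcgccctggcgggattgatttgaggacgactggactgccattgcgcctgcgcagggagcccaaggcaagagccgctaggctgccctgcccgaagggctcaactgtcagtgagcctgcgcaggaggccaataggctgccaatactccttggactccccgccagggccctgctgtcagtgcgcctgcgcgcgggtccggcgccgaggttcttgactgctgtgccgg
BST2, chr19:17405581-17405880 (- strand): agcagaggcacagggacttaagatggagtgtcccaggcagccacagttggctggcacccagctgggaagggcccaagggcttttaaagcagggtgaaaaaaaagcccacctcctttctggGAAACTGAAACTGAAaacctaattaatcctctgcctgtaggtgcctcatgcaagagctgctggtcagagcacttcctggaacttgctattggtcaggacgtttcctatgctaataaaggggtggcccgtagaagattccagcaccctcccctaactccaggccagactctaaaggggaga
ISG20, chr15:88638766-88639065 (+ strand): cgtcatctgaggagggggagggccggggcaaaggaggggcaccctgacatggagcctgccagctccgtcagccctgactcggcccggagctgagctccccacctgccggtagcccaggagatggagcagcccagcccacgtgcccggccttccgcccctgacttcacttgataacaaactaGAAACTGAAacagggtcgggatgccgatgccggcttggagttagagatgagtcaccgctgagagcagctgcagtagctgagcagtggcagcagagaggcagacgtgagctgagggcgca

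The ISRE core was in 7 of the 11 windows and in 5 of the 6 genes. Of all 35116 promoter windows of this length, 8.11% hold it. MX1 and BST2 each hold 2 copies that overlap by 3 bases, a density found in 0.701% of all windows (2 or more copies). The window of SAMHD1 had no match, which says only that these letters are not in these 300 bases. A second motif, the gamma-activated site TTCNNNGAA, was in 2 of the 11 windows, 1 of MX1 and that of BST2, against 7.66% of all windows. In both windows a match to it overlaps an ISRE core match. RSAD2 and CMPK2 stand head to head on opposite strands, and the RSAD2 upstream window and the CMPK2 window above share 165 bases, so that the same ISRE core lies in both, at bases -79 to -71 from the RSAD2 start and 5 to 13 from the CMPK2 start. A core longer by 1 base (GAAA, any 2 bases, GAAA), counted after the matches were seen, is in 5 of the 11 windows and 4 of the 6 genes, against 3.57% of all windows, and it is in neither of the windows that share the site. A match is a description of letters and not a binding site.

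**Figure D1:**
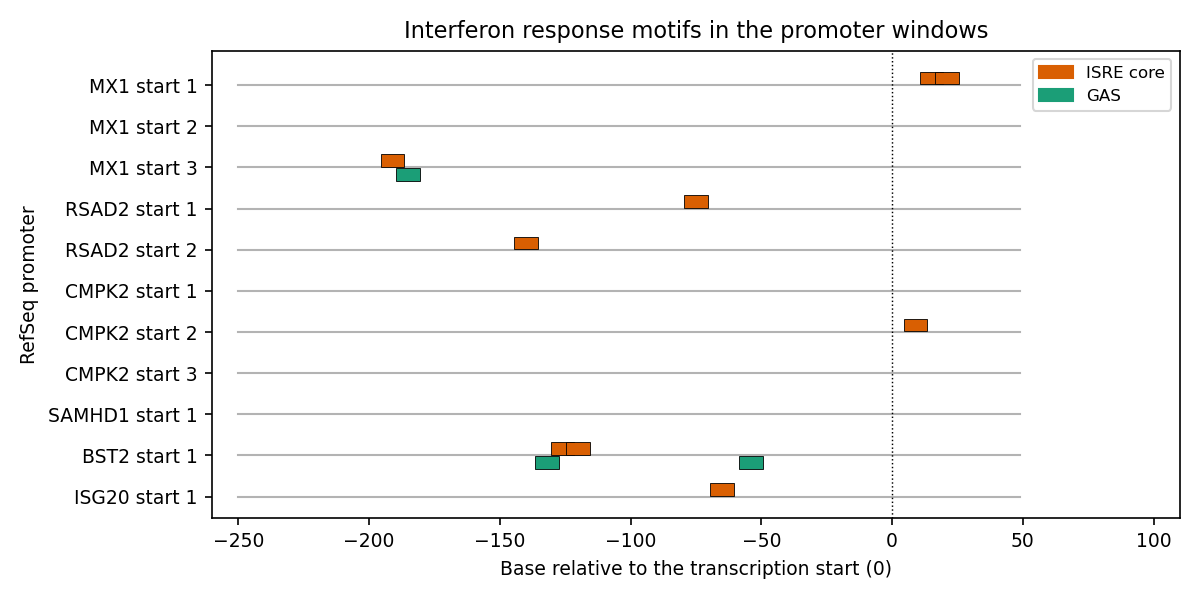
Positions of the ISRE core (orange) and gamma-activated site (green) in the 11 promoter windows, in bases from the transcription start (0). MX1 start 1 and BST2 hold 2 overlapping ISRE cores, and SAMHD1, MX1 start 2 and CMPK2 starts 1 and 3 hold neither motif.

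PRMT9 was lower in each shPRMT9 library than in each shCtrl library. It had 332 and 289 counts in Molm13 shCtrl and 41 and 56 in Molm13 shPRMT9, a log2 fold change of -2.68 ± 0.14 (SE; edgeR quasi-likelihood, adjusted p = 1.16e-21). The THP1 libraries had 317 and 352 PRMT9 counts in shCtrl and 60 and 68 in shPRMT9, a log2 fold change of -2.29 ± 0.13 (adjusted p = 3.54e-14). The libraries held 18720950 to 27356870 counts. A gene was called when its Benjamini-Hochberg adjusted p was below 0.05, its fold change above 1.5 and its RPKM (TMM-normalized CPM per kilobase of exon) above 1 in at least 1 library.

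In THP1 all 7 genes were called up with shPRMT9, and in Molm13 4 of the 7 were. The background of called rises was 3.82% of 16294 genes tested in THP1 and 11.4% of 16446 in Molm13. The median log2 fold change of the 7 genes was 2.13 in THP1 and 0.75 in Molm13, while that of all genes was close to 0 in both lines (-0.00063 and 0.00047). MX2, RSAD2, CMPK2 and BST2 were called in both lines, and 2.06% of the 13476 genes tested in both lines were called up in both. No member fell in either line by edgeR, at an unadjusted p under 0.05 or by DESeq2 (0 in each). At the adjusted p alone, 6 of the 7 rose in Molm13 and 7 in THP1, against 33.4% and 19% of all genes, and with the fold limit but no RPKM minimum 5 and 7 did, against 16.3% and 5.78%. Both shPRMT9 libraries were above both shCtrl libraries for 6 genes in Molm13 and 7 in THP1, which was so for 40.1% and 31.5% of all genes. MX2 and RSAD2 belong to a signature that the study chose on these libraries, so their rise is not independent evidence of its direction. In bulk RNA, more cells that express a gene and more RNA per cell cannot be told apart.

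**Figure D2:**
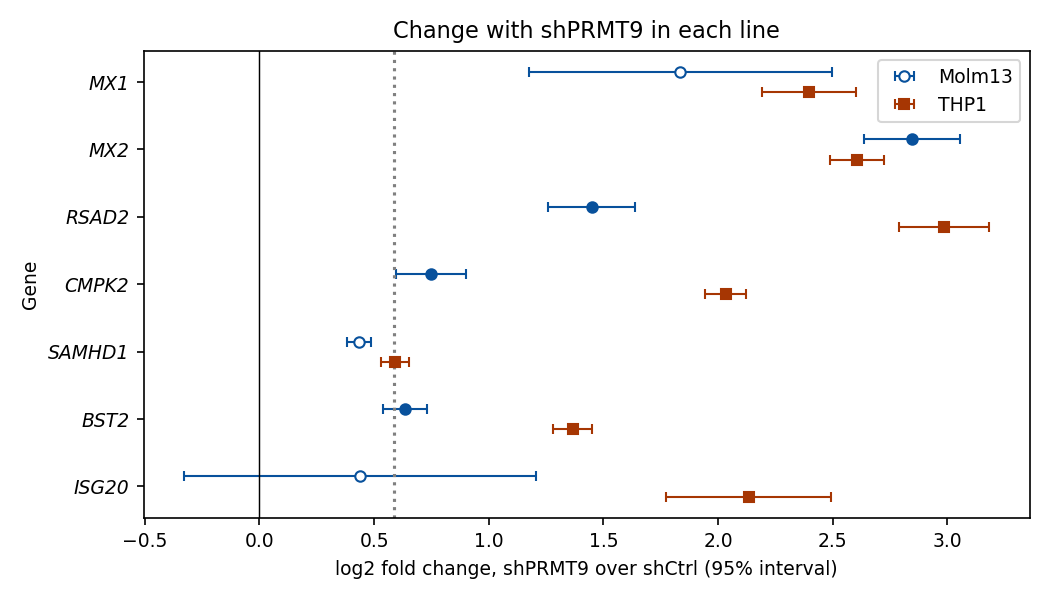
log2 fold change of each gene, shPRMT9 over shCtrl, with its 95% interval, in Molm13 (circles) and THP1 (squares). Filled symbols are called genes, and the dotted line is the 1.5-fold limit. RSAD2 leads in THP1 (2.99) and MX2 in Molm13 (2.85).

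MX1 (ENSG00000157601, chr21:41420304-41459214, + strand, hg38) encodes MxA, a cytoplasmic GTPase that traps viral nucleocapsids. In Molm13 it was near the limit of detection, with 16 and 10 counts in shCtrl and 56 and 37 in shPRMT9. Its groups did not overlap and its log2 fold change was 1.84 ± 0.33 (adjusted p = 3.84e-06), but its highest RPKM was 0.345 and it was not called. In THP1 MX1 had 107 and 132 counts in shCtrl and 599 and 582 in shPRMT9. The THP1 groups stood far apart, and MX1 rose 5.27-fold (log2 fold change 2.40 ± 0.10, adjusted p = 2.08e-17).

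MX2 (ENSG00000183486, chr21:41361943-41409390, + strand) encodes MxB, which acts on the nuclear entry of HIV-1. It lies 10914 bases upstream of MX1 on the same strand. MX2 had 74 and 75 counts in Molm13 shCtrl and 512 and 562 in shPRMT9. The THP1 libraries held 490 and 583 counts in shCtrl and 2970 and 3144 in shPRMT9. Both lines showed groups without overlap, with a 7.20-fold rise in Molm13 (log2 fold change 2.85 ± 0.10, adjusted p = 8.42e-27) and a 6.09-fold rise in THP1 (2.61 ± 0.06, adjusted p = 6.06e-24). MX2 ranked 101st of 16446 genes by log2 fold change in Molm13 and 69th of 16294 in THP1. MX1 and MX2 are related in sequence, and reads shared by both could be split between them in ways the counts do not show.

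RSAD2 (ENSG00000134321, chr2:6865806-6898239, + strand) had 156 and 157 counts in Molm13 shCtrl and 378 and 478 in shPRMT9. In THP1 it had 135 and 112 counts in shCtrl and 907 and 929 in shPRMT9. The groups did not overlap in either line, and the THP1 libraries held fewer counts than those of Molm13 in shCtrl and more in shPRMT9. RSAD2 rose 2.73-fold in Molm13 (log2 fold change 1.45 ± 0.09, adjusted p = 7.96e-18) and 7.93-fold in THP1 (2.99 ± 0.10, adjusted p = 5.72e-20), where it ranked 48th of 16294 genes.

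CMPK2 (ENSG00000134326, chr2:6840570-6866635, - strand) is the head-to-head partner of RSAD2, and its product is thought to supply CTP to viperin. It had 302 and 307 counts in Molm13 shCtrl and 473 and 551 in shPRMT9, a rise of 1.68-fold (log2 fold change 0.75 ± 0.08, adjusted p = 9.31e-12). Its THP1 counts were 995 and 1093 in shCtrl and 4022 and 3984 in shPRMT9, a rise of 4.09-fold (2.03 ± 0.04, adjusted p = 5.68e-24). The gene bodies of CMPK2 and RSAD2 overlap by 830 bases, but their exons share only 14 bases in GENCODE 29, and the strand setting of the counting is not given in the sources used here. Within each line the partners moved the same way, RSAD2 by more than CMPK2.

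SAMHD1 (ENSG00000101347, chr20:36890229-36951843, - strand), a restriction factor known for myeloid cells, was the most abundant of the 7 genes per length in 3 of the 4 groups. That order rests on the deposited exon length, which is shorter than in GENCODE 29. SAMHD1 had 6254 and 6025 counts in Molm13 shCtrl and 7700 and 8917 in shPRMT9. Each THP1 library held more, with 10902 and 11845 counts in shCtrl and 16082 and 16009 in shPRMT9. The groups did not overlap in either line, but the changes were the smallest of the 7 genes in THP1 and, with ISG20, in Molm13. In Molm13 the fold was 1.35 (log2 fold change 0.44 ± 0.03, adjusted p = 3.02e-19), under the fold limit, and in THP1 it was 1.51 (0.59 ± 0.03, adjusted p = 1.13e-15), just past it. This THP1 call was lost with library sizes alone (log2 fold change 0.56), with no count filter (0.58) and without shPRMT9 replicate 2 (0.58). In GENCODE 29, SAMHD1 shares 1159 exon bases with TLDC2 on the opposite strand, which had 2 to 12 counts per library. All these values are RNA, not protein. The study reported lower SAMHD1 protein in Molm13 after PRMT9 KD. It also reported unchanged mRNA of the short-lived proteins it measured, and SAMHD1 transcripts moving from heavier to lighter polysomes.

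BST2 (ENSG00000130303, chr19:17402939-17405648, - strand) had 992 and 967 counts in Molm13 shCtrl and 1462 and 1579 in shPRMT9, a rise of 1.55-fold (log2 fold change 0.64 ± 0.05, adjusted p = 7.78e-16). In THP1 it had 2218 and 2202 counts in shCtrl and 5405 and 5274 in shPRMT9, a rise of 2.58-fold (1.37 ± 0.04, adjusted p = 1.01e-20). Both lines showed higher counts in each shPRMT9 library.

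ISG20 (ENSG00000172183, chr15:88636153-88656483, + strand) was scarce in both lines. In Molm13 it had 11 and 17 counts in shCtrl and 22 and 16 in shPRMT9, and these groups overlapped. Its log2 fold change in Molm13 was 0.44, with a 95% interval from -0.33 to 1.21 (adjusted p = 0.313), and a difference was not detectable at this depth. In THP1 ISG20 had 40 and 53 counts in shCtrl and 215 and 168 in shPRMT9. The THP1 groups did not overlap, and ISG20 rose 4.39-fold (log2 fold change 2.13 ± 0.17, adjusted p = 6.78e-11). Its call in THP1 rests on 1 library for the RPKM limit, shPRMT9 replicate 1 at 1.15, while replicate 2 had 0.915. Fits that left a library out kept the RPKM of all libraries, so they could not show whether the call depends on that library.

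Levels were compared between genes as RPKM. In Molm13 shCtrl, SAMHD1 was highest at 61.2 ± 0.8 (SD, n = 2), followed by BST2 (44.0 ± 0.9), CMPK2 (3.56 ± 0.18), RSAD2 (1.63 ± 0.07), MX2 (0.287 ± 0.014), ISG20 (0.096 ± 0.033) and MX1 (0.075 ± 0.022). ISG20 and MX1 there were the only neighbours, in any of the 4 groups, whose libraries overlapped. In Molm13 shPRMT9 the order of the first 5 genes was kept, and MX1 (0.273 ± 0.101) stood above ISG20 (0.130 ± 0.040). THP1 shCtrl had SAMHD1 at 84.8 ± 0.7, BST2 at 74.3 ± 4.1 and CMPK2 at 9.12 ± 0.15, with MX2 (1.54 ± 0.11) above RSAD2 (0.965 ± 0.175). In THP1 shPRMT9 BST2 (190 ± 1) passed SAMHD1 (127 ± 1), CMPK2 reached 36.9 and 37.2 in its 2 libraries, MX2 9.32 ± 0.48, RSAD2 7.56 ± 0.22, MX1 2.73 ± 0.02 and ISG20 1.03 ± 0.17. RSAD2 thus stood above MX2 in both Molm13 groups and below it in both THP1 groups.

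**Figure D3:**
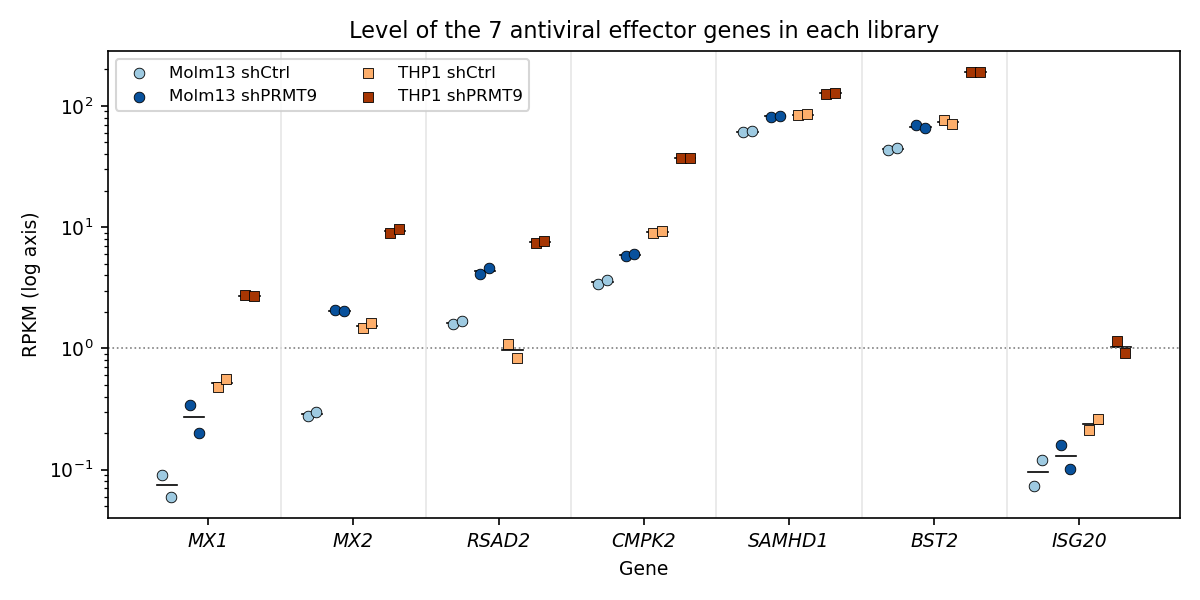
RPKM of each gene in each of the 8 libraries on a log axis, with a black bar at the mean of each group of 2. The dotted line marks 1 RPKM. THP1 shPRMT9 is highest for each of the 7 genes. With the deposited exon lengths, SAMHD1 and BST2 lie above 40 RPKM throughout.

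Without KD, 5 of the 7 genes were called higher in THP1 than in Molm13 and 1 was called lower, in a fit of all 8 libraries. The RPKM limit was read over all 8 libraries here. MX1 and ISG20 passed it only through THP1 shPRMT9, since in shCtrl they reached at most 0.556 and 0.261 RPKM. Of all 19288 genes tested, 17.5% were called higher in THP1 and 44.4% in either direction. MX1 differed most (log2 ratio 2.78 ± 0.25, adjusted p = 3.65e-18), followed by MX2 (2.43 ± 0.11, adjusted p = 5.10e-37), CMPK2 (1.36 ± 0.07), ISG20 (1.31 ± 0.31) and BST2 (0.76 ± 0.05). SAMHD1 was higher by 1.39-fold (log2 ratio 0.47 ± 0.03), under the fold limit. RSAD2 was the exception and was lower in THP1, with a log2 ratio of -0.75 ± 0.13 (adjusted p = 2.21e-07), although its partner CMPK2 was higher. Without THP1 shCtrl replicate 2 the RSAD2 ratio was -0.56, under the fold limit. The lines come in separate tables, so line and handling cannot be told apart here or in the next comparison.

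The effect of shPRMT9 was larger in THP1 for 5 of the 7 genes at an adjusted p below 0.05. Among all genes tested, 22.8% had a higher change in THP1 by this limit, and 42.2% differed in either direction. ISG20 differed by 1.71 ± 0.44 on the log2 scale (interaction term, adjusted p = 7.05e-04), RSAD2 by 1.55 ± 0.15 (1.55e-15), CMPK2 by 1.30 ± 0.09 (4.71e-23), BST2 by 0.74 ± 0.06 (7.88e-19) and SAMHD1 by 0.17 ± 0.04 (1.74e-04). The first 4 of these differed by more than 1.5-fold, against 9.72% of all genes. The ISG20 difference was lost without Molm13 shCtrl replicate 2 (1.29, adjusted p = 0.0825). For MX1 the difference was 0.58 with a 95% interval from -0.15 to 1.31 (adjusted p = 0.218), and it passed without Molm13 shPRMT9 replicate 1 (0.96, adjusted p = 0.0493). For MX2 it was -0.23 with an interval from -0.51 to 0.05 (adjusted p = 0.192).

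**Figure D4:**
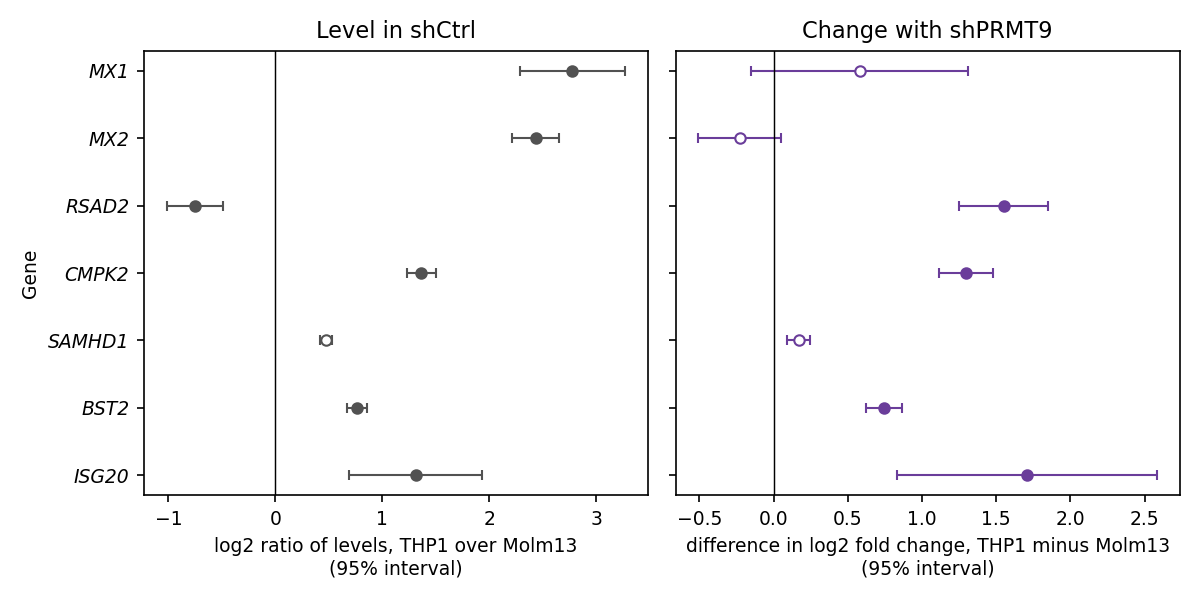
Left, log2 ratio of shCtrl levels, THP1 over Molm13; right, difference in the log2 fold change with shPRMT9, THP1 minus Molm13; bars are 95% intervals and filled symbols are called. RSAD2 is below 0 on the left (-0.75) and well above 0 on the right (1.55), while the intervals of MX1 and MX2 cross 0 on the right.

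Genes next to the members were read from the same fits, to see how far along the chromosome the changes went. Within 100 kb of a member lay 43 other genes. In Molm13 17 of them were tested, 4 were called up and 2 down, against 11.4% and 11.3% of all genes, so the falls were near the background share. In THP1 18 were tested, 3 were called up and 0 down by edgeR and by DESeq2, against 3.82% and 2.39% of all genes, while 5 were lower at an unadjusted p under 0.05. BISPR, a long noncoding RNA that starts 46 bases from BST2 on the opposite strand, was called in both lines. It had 96 and 63 counts in Molm13 shCtrl and 231 and 263 in shPRMT9 (log2 fold change 1.63 ± 0.13, adjusted p = 1.11e-14), and in THP1 226 and 208 counts in shCtrl and 476 and 506 in shPRMT9 (1.27 ± 0.10, adjusted p = 1.17e-11). Without a known strand setting, reads near this shared start cannot be given to one gene or the other. MVB12A, named after its values were seen because its annotated body begins 74 bases from BST2, was called in neither line (0.27 ± 0.08 in Molm13 and 0.04 ± 0.08 in THP1).

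NRIR, a long noncoding RNA named as a negative regulator of the interferon response, ends the CMPK2 side of the RSAD2 locus, 106 bases from CMPK2. In THP1 it had 88 and 77 counts in shCtrl and 229 and 276 in shPRMT9 and rose with its neighbours (log2 fold change 1.71 ± 0.14, adjusted p = 1.16e-10). In Molm13 it had 12 and 18 counts in shCtrl and 8 and 20 in shPRMT9, groups that overlapped (-0.10 ± 0.41, adjusted p = 0.838). The noncoding CTD-2521M24.13, 8781 bases from BST2, was called in THP1 (1.91 ± 0.33) and, in Molm13, had 2.73 ± 0.50 at an RPKM under the limit. Around BST2 in Molm13, TMEM221 (1.76 ± 0.23), SLC27A1 (1.20 ± 0.08), a fatty acid transporter, and ANO8 (0.74 ± 0.08) were also called up. RBL1, a pocket protein gene near SAMHD1, and AEN, an exonuclease gene 3871 bases from ISG20, fell in Molm13 by 0.73 each on the log2 scale.

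**Figure D5:**
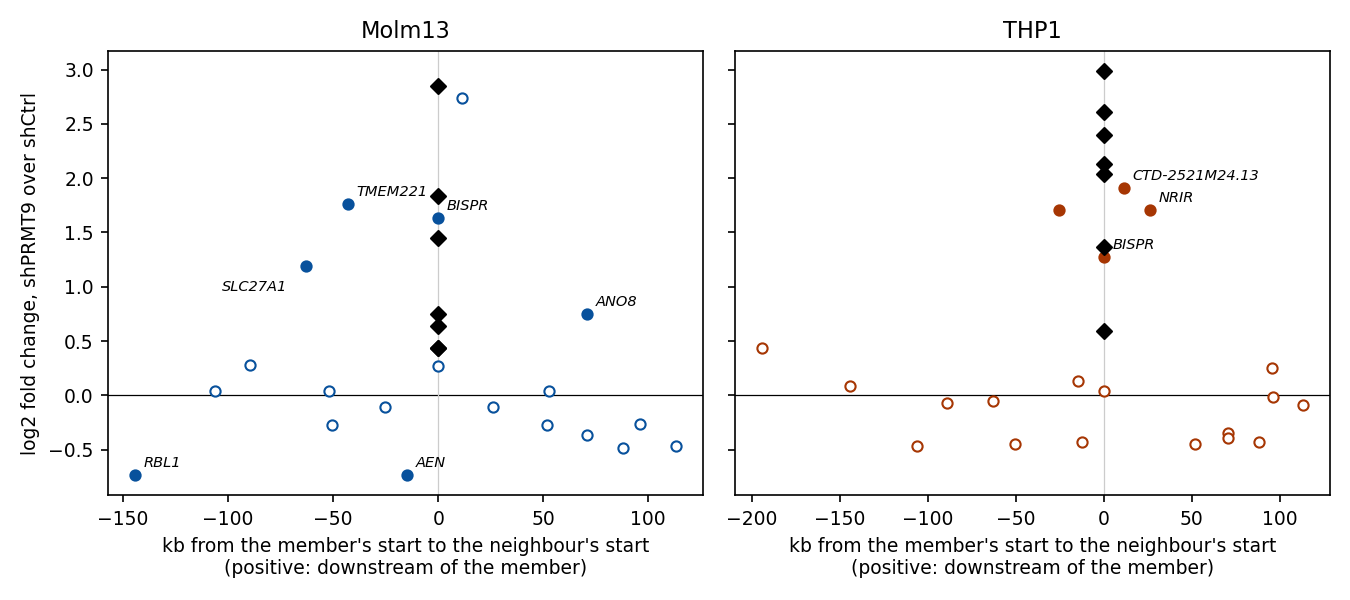
log2 fold change with shPRMT9 of the tested genes within 100 kb of a member, against the distance from the member's start to the neighbour's start in kb along the member's strand. Circles are neighbours (filled when called; NRIR stands near both RSAD2 and CMPK2 and is drawn for each), and black diamonds at 0 are the 7 members. BISPR sits at the BST2 start in both lines.

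The genes whose profiles over the 8 libraries were most like those of each member were found by the distance between log2 CPM profiles centred within each line, among 15251 genes. The guanylate-binding protein GBP4 (distance 0.265) and the helicase HELZ2 (0.627) were closest to MX1, and OAS1 (0.497) and IFITM1 (0.702) to MX2. RSAD2 was closest to SLAMF7 (0.438) and ICAM1 (0.464), which are cell surface molecules. CMPK2 was closest to RNF213 (0.129) and the RNA sensor gene DDX58 (0.186), and BST2 to EIF2AK2 (0.119), which encodes the kinase PKR, and the cyclin-dependent kinase inhibitor CDKN1A (0.125). SAMHD1 was closest to EDRF1 (0.0544) and FKBP15 (0.0803), and ISG20 to the monocyte receptor CD14 (0.510) and NFE2L3 (0.541). Among the members, CMPK2 and BST2 were the closest pair (0.689), while CMPK2 and its partner RSAD2 were 1.20 apart and MX1 and MX2 1.31. These distances describe 8 libraries and carry no test.

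Other antiviral effectors were frequently called up. Of 43 listed genes, 40 were tested in Molm13 and 28 were called up, and 41 were tested in THP1 and 34 were called up, with 0 called down by edgeR or DESeq2 in either line and, at an unadjusted p under 0.05, 1 lower in Molm13 and 0 in THP1. Of all genes tested, 11.4% in Molm13 and 3.82% in THP1 were called up. The median log2 fold change of the list was 1.20 in Molm13 and 1.95 in THP1, against 0.00047 and -0.00063 for all genes. The largest changes in Molm13 were those of IFI44L (5 and 6 counts in shCtrl, 299 and 333 in shPRMT9; log2 fold change 5.81 ± 0.21), OAS2, an oligoadenylate synthetase (4.11 ± 0.06), and IFI44 (4.06 ± 0.16). In THP1 they were those of IFI44L (4.61 ± 0.05), the guanylate-binding protein GBP1 (3.88 ± 0.21) and IFI44 (3.77 ± 0.06). These exceeded every one of the 7 members in the same line. TREX1 and CH25H were listed at 0 in all 8 libraries.

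Of the 23 interferon signalling genes listed, 20 were tested in each line, and 10 were called up in Molm13 and 8 in THP1, with 0 called down by edgeR or DESeq2 and, at an unadjusted p under 0.05, 1 lower in Molm13 and 2 in THP1. Background calls up were 11.4% of genes in Molm13 and 3.82% in THP1. The median log2 fold change was 0.59 in Molm13 and 0.40 in THP1. Molm13 was led by the RNA sensor IFIH1 (2.08 ± 0.08), IRF7 (1.95 ± 0.08) and IRF9 (1.91 ± 0.18), and THP1 by the ISG15 protease USP18 (3.01 ± 0.08), the RNA sensor gene DDX58 (2.21 ± 0.07) and IFIH1 (2.19 ± 0.05). IFNB1, named after its values were seen, had too few counts to be tested, with 0 and 1 counts in Molm13 shCtrl, 3 and 2 in shPRMT9, 1 and 1 in THP1 shCtrl and 10 and 8 in shPRMT9. IFNA1 had 0 counts in all 8 libraries, and IFNL1 had counts only in THP1 shPRMT9 (1 and 6).

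SAMHD1 and CMPK2 act on the nucleotide pool, and among 22 listed genes of deoxynucleotide metabolism more were called down than up. In Molm13 9 of 21 tested genes were called down and 2 up, by edgeR and by DESeq2, with a median of -0.53. At an unadjusted p under 0.05, 16 were lower and 2 higher in Molm13. Background calls down in Molm13 were 11.3% of genes. TYMS, which makes thymidylate, had 5880 and 5702 counts in shCtrl and 2464 and 2797 in shPRMT9 (-1.14 ± 0.03), and DTYMK, the next kinase in that route, changed by -1.15 ± 0.07. The CTP synthase CTPS1 (-1.0 ± 0.04), the nucleoside transporter SLC29A1 (-0.97 ± 0.04), the ribonucleotide reductase subunit RRM2 (-0.70 ± 0.03), DUT (-0.69 ± 0.04), DCK (-0.66 ± 0.05) and NME1 (-0.60 ± 0.05) also fell. TK2 (0.69 ± 0.06) and ADA (0.71 ± 0.05), named after their values were seen, rose. In THP1 CDA, cytidine deaminase, fell from 31 and 46 counts to 9 and 5 (-2.34 ± 0.40) and was the 1 gene of 22 tested to be called down by edgeR, while DESeq2 called 2 and 10 were lower at an unadjusted p under 0.05. None was called up by edgeR or DESeq2 (0 each), 2 were higher at an unadjusted p under 0.05, and the median was -0.11. Background calls down in THP1 were 2.39%. CMPK1, the constitutive relative of CMPK2, was called in neither line (0.04 ± 0.03 in Molm13 and 0.06 ± 0.04 in THP1).

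Relatives of the members by family, 11 genes such as the dynamins and mitofusins, RSAD1, CMPK1 and the ISG20 relatives, gave 0 called rises by edgeR or DESeq2 in either line, where 11.4% of all genes in Molm13 and 3.82% in THP1 were called up, so a count of 0 among 11 is near the background share. At an unadjusted p under 0.05, 0 were higher in Molm13 and 4 in THP1. MFN2 (-0.61 ± 0.03), ISG20L2 (-0.72 ± 0.04) and AEN fell in Molm13, 3 of 11 against 11.3% of all genes, and DNM1 (-0.62 ± 0.06) fell in THP1, 1 of 11 against 2.39%. The medians were -0.20 in Molm13 and 0.06 in THP1.

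Marker genes were read to check the lines. Of 8 myeloid markers, 7 were above 1 RPKM in each group except THP1 shPRMT9, where all 8 were, and CD14 was the low one in Molm13 (4 to 8 counts). In Molm13 7 of the 8, and in THP1 6 of the 8, were higher in both shPRMT9 libraries than in both shCtrl libraries. The summed RPKM of this list moved with shPRMT9, from 536 in both Molm13 shCtrl libraries to 795 and 801, and from 1227 and 1232 in THP1 shCtrl to 1900.3 and 1986, most of it from the lysozyme gene LYZ. MPO went the other way, from 1236 and 1207 counts to 753 and 900 in Molm13 and from 211 and 188 to 108 and 104 in THP1. FLT3 was higher with shPRMT9 in Molm13 (85.4 and 85.2 RPKM in shCtrl, 101.6 and 102.7 in shPRMT9) and lower in THP1 (1456 and 1528 counts in shCtrl, 1208 and 1298 in shPRMT9). The part of this shift in the results above was not tested. PECAM1, listed with epithelial and stromal markers, had 3058 and 3272 counts in Molm13 shCtrl against 5202 and 5892 in shPRMT9, and 9694 and 10377 in THP1 shCtrl against 20763 and 20501 in shPRMT9, while EPCAM, CDH1 and COL1A1 stayed under 1 RPKM. Erythroid markers summed to at most 0.208 RPKM, and of the 5 T and NK cell markers only NCAM1 passed 1 RPKM. MS4A1, a B cell marker, was at or near 0 in both lines (0 to 1 counts), though PAX5 had 741 to 866 counts in Molm13. In THP1 PAX5 moved with shPRMT9, from 64 and 86 counts in shCtrl to 298 and 276 in shPRMT9, and the part of this in the results above was not tested.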

How the data were processed

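Bulk polyA RNA-seq of Molm13 and THP1 with Dox-induced shCtrl or shPRMT9 was analyzed, with 2 libraries per group. The authors deposited 1 table of raw counts (unnormalized reads assigned to each gene) per line. The submitters' processing notes name hg38, TopHat2 2.0.8, HTSeq 0.11.2 and edgeR 3.30.3, while the annotation release and the strand setting are not given in the sources used here. Coordinates and exon lengths come from the Molm13 table, and exon overlaps from GENCODE 29. SAMHD1 has slightly different ends there and 11261 exon bases, against 5038 in the deposited lengths. The other 6 genes have the same ends and exon lengths. RPKM of SAMHD1 was computed with 5038 bases only.

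These counts were analyzed here with edgeR 4.0.16 in R 4.3.3 (filterByExpr, TMM, glmQLFit, glmQLFTest, Benjamini-Hochberg adjustment over all genes tested). Each line was fitted separately, and a fit of all 8 libraries gave the interaction and the difference between lines. SEs were derived from the log2 fold change and the F statistic (|log2 fold change|/√F). CPM and RPKM use TMM-scaled library sizes. Depth ranged from 18720950 to 27356870 counts, so genes with few counts have wide intervals. Scripts were tested on simulated counts. Alternatives were other normalizations, no filter, DESeq2 1.42.0, a replicate block, other limits and leaving out each library.

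The genes and lists were chosen with earlier results of these data known. Named genes are the 7 members, PRMT9, the 3 largest called changes and all called falls per list and line, called neighbors within 100 kb and the 2 nearest profiles per member (prior count 2, mean of at least 20 counts), with exceptions stated. Promoter sequences are from RefSeq. Some genes of these lists are counted in the list totals and not reported here by name.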

Additional observations from a re-analysis of the deposited data

Results flagged for a closer look

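THP1 and Molm13 responded to shPRMT9 to a different extent at 5 of the 7 genes by the interaction term of the 8-library fit (edgeR quasi-likelihood, adjusted over 19288 genes). The difference in log2 fold change, THP1 minus Molm13, was 1.71 for ISG20, 1.55 for RSAD2, 1.30 for CMPK2, 0.74 for BST2 and 0.17 for SAMHD1. In either direction, 42.2% of all genes tested passed the same limit. The Molm13 counts of ISG20 were at most 22, and SAMHD1 differed by only 1.12-fold. RSAD2 had a lower mean RPKM in THP1 than in Molm13 under shCtrl (0.965 against 1.63) and a higher one under shPRMT9 (7.56 against 4.39), and the latter difference was not tested. Each line was measured in a table of its own, so line and handling cannot be told apart.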

How the results depend on the processing

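Of the alternatives to the results counted for a comparison, 140 gave the same reading, 7 a weaker and 11 a stronger one. These results are counts of called genes, which have no sign, so they could not show a reversal. A count could also differ and still be read as the same. With no filter, 26 other antiviral effectors were called in Molm13, against 28. Among the remaining results, such as log2 fold changes of single genes, 1164 alternatives were the same, 14 weaker, 6 stronger and 4 reversed. The called members were 4 in Molm13 and 7 in THP1 with the replicate number as a block, as without it, and the block changed no call of a member. Deviations of same-numbered libraries correlated at -0.087 in Molm13 and -0.015 in THP1. With 2 libraries per group, this check cannot tell whether same-numbered libraries share a culture or preparation. At a fold change of 2, 2 members were called in Molm13, with 4 interferon signalling, 3 deoxynucleotide metabolism and 0 family genes there, and 0 family genes in THP1. The share of all genes called at this limit was not counted, so nothing is read from these counts about the lists. With the adjusted p alone, the calls in either direction were 17, 18 and 7 for these lists in Molm13 and 17, 10 and 5 in THP1. Upward alone, the calls were 16, 2 and 0 in Molm13 and 15, 2 and 3 in THP1, where 33.4% and 19% of all genes passed this limit upward. The share of all genes in either direction was not counted, so the counts in either direction are not read as a property of the lists. The deoxynucleotide list in THP1 had 2 called genes with library sizes alone, with no filter and with DESeq2, DCK being added, and 1 to 2 when single libraries were left out (2 without shCtrl replicate 2 and without shPRMT9 replicate 1). The family list in THP1 had 0 to 1, and 0 without the same libraries, DNM1 being lost. Small changes turned sign without 1 library: NRIR in Molm13 ranged from -0.79 to 0.33 (0.25 without shCtrl replicate 2 and 0.33 without shPRMT9 replicate 1), and SLC27A1 in THP1 from -0.17 to 0.048 (0.0056 without shCtrl replicate 1 and 0.048 without shPRMT9 replicate 1). The causes were not tested. ISG20 in Molm13 had at most 22 counts per library, and its interval spans 0.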
